A study of Mus musculus with 14 samples.

Results

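The 36 genes described here carry the cell's cholesterol economy: 19 enzymes of sterol synthesis, 7 regulators, 6 genes of uptake and intracellular transport and 4 of export. They were chosen by symbol, as the rows of the count table whose Ensembl identifier maps to a list of sterol genes, and all 36 were found among the 48440 genes of the table. Their transcripts were measured by bulk RNA-seq in 3 brain regions of C57BL/6 mice. The groups were CARIP-/- (knockout, KO) and wild-type (WT) cerebellum with 3 libraries each, KO and WT hippocampus with 2 each, and KO and WT cerebral cortex with 2 each, whose titles read Cerebrum. The sources used here give neither age, sex nor the design of the deletion. No label says whether libraries came from separate mice, so p-values measure the spread between these samples, which may be technical.

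Sterol synthesis starts from acetyl-CoA, runs through mevalonate and the isoprenoid diphosphates to squalene, closes the ring at lanosterol and ends with demethylation, reduction and isomerisation to cholesterol. Its enzymes are transcribed under SREBP-2, the product of Srebf2, which Scap carries out of the endoplasmic reticulum when sterols are low and which Insig1 and Insig2 hold back when they are high. The brain makes nearly all of its own cholesterol because the blood-brain barrier keeps plasma lipoproteins out, and most brain cholesterol lies in myelin, the membrane that oligodendrocytes wrap around axons. Glia pass cholesterol on with apolipoprotein E, loaded by ABCA1 and ABCG1 under the liver X receptors, and neurons clear it as a hydroxylated sterol made by CYP46A1.

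Promoters are shown because SREBP-2 acts through 2 short motifs that stand together near the start sites of synthesis genes: the sterol response element core, searched as TCACNCCAC, and the NF-Y box, searched as CCAAT. Both strands were searched in the RefSeq promoter windows (GRCm38.p6, 250 bases before to 50 after each start). Windows were found for 30 of the 36 members. The core stood in 1 of the 30, Hmgcs1, and in 408 of all 32851 windows (1.24%). The CCAAT box stood in 15 of the 16 synthesis members with a window, Acat2 being the exception, and in 23 of the 30 members, against 37.4% of all windows and 41.8% of the tested genes with a window. An exact direct repeat of AGGTCA with 4 bases between, the textbook liver X receptor element, stood in 0 of the 30 members and in 5 of all windows. Variants of the motifs were not searched. Dhcr7 had 3 RefSeq starts, and the box stood before 1 of them. The 4 stretches below end at the base before the start site and read 5′ to 3′, with the core and the CCAAT box, or its reverse complement ATTGG, in capitals. They are Hmgcs1 (chr13:119690101-119690350, plus strand), the only member window with the core, and Srebf2 (chr15:82147119-82147268, plus strand). Abca1 (chr4:53159896-53160045, minus strand) is shown as an export gene with no exact match to the strings searched. Cyp51 (chr5:4104698-4104847, minus strand) was added because it passed a test below.
Hmgcs1: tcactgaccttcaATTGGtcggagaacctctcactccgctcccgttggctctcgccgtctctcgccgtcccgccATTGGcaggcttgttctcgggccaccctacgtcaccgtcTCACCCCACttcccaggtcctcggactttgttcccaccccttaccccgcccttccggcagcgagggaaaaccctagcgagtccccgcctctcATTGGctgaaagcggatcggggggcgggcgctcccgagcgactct
Srebf2: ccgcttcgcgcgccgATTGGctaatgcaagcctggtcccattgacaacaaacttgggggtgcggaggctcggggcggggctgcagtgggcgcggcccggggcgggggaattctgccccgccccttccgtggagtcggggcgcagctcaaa
Abca1: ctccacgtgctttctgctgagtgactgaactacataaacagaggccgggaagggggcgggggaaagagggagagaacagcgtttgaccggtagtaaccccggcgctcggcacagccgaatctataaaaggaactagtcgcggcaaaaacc
Cyp51: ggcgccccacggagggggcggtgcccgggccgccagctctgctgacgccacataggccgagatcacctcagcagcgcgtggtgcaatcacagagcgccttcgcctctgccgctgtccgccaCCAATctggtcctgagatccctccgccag
In Hmgcs1 the core began 137 bases before the start, between CCAAT boxes at 237, 176 and 45 bases. The box lay 29 bases before the start in Cyp51 and 135 bases before it in Srebf2. These matches are strings and not measured binding sites, and a window without an exact match may still hold a working element.

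Libraries held 20.1 to 38.8 M counted reads (median 24.7 M), and the members took 0.271% to 0.381% of them. Purkinje cell markers set cerebellum apart. The 6 genes summed to 4254 to 5174 CPM in KO and 3408 to 5762 CPM in WT cerebellum, but to no more than 1396 CPM in any other library. No list of markers particular to hippocampus or cortex was read. KO cortex library 2 differed from the rest of cortex in its marker content. Its 8 striatal markers summed to 583 CPM and its 7 choroid plexus markers to 592 CPM, against 117 and 37.0 CPM in KO library 1 and no more than 99.8 and 33.8 CPM in the WT libraries. The 6 thalamic markers summed to 576 CPM in it, against 249 CPM in KO library 1 and no more than 237 CPM in WT cortex. That list is not particular to thalamus, with 711 to 759 CPM in KO and 687 to 907 CPM in WT cerebellum. The synthesis medians of the KO effect in cortex, of its mean over regions and of the contrasts with cortex are therefore also given without KO cortex library 2. In cerebellum the choroid plexus sum was 953 to 1131 CPM in KO libraries and 33.8 CPM in WT library 1 but 644 and 1381 CPM in the other WT libraries. The transcript of CARIP was not identified by name in the annotation, so no library could be checked for the deletion. In bulk tissue, fewer cells of a type and less RNA per cell cannot be told apart.

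Per kilobase of exon, the most abundant member was Apoe, the lipoprotein that carries glial cholesterol, with 219 CPM per kb in cerebellum, 331 in hippocampus and 350 in cortex. Lrp1, a receptor that takes up apolipoprotein E, came next with 62.8, 53.9 and 66.1 CPM per kb, and Hmgcs1, the HMG-CoA synthase that commits acetyl units to mevalonate, was the most abundant enzyme of synthesis in each region with 21.8, 34.7 and 41.1 CPM per kb. The fourth place differed between regions. Insig1 held it in cerebellum with 15.3 CPM per kb, Srebf2 in hippocampus with 26.2 and Cyp46a1 in cortex with 40.4. Fdps, farnesyl diphosphate synthase, was lowest in all regions at 0.332 to 0.502 CPM per kb and had only 26 to 72 reads per library. Reads of 5 synthesis members may be shared with near-identical or overlapping annotated transcripts (at least 95% identity over 300 bases): Acat2 with Acat3 and Tcp1, Fdft1 with Ctsb and Gm6781, Ggps1 with Gm5630, Hmgcs1 with Gm48342, and Idi1 with Gm13502, Gm35570 and Gm48574. How such reads and the 2 strands were counted was not stated in the sources used here, so their values are uncertain.

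**Figure D1:**
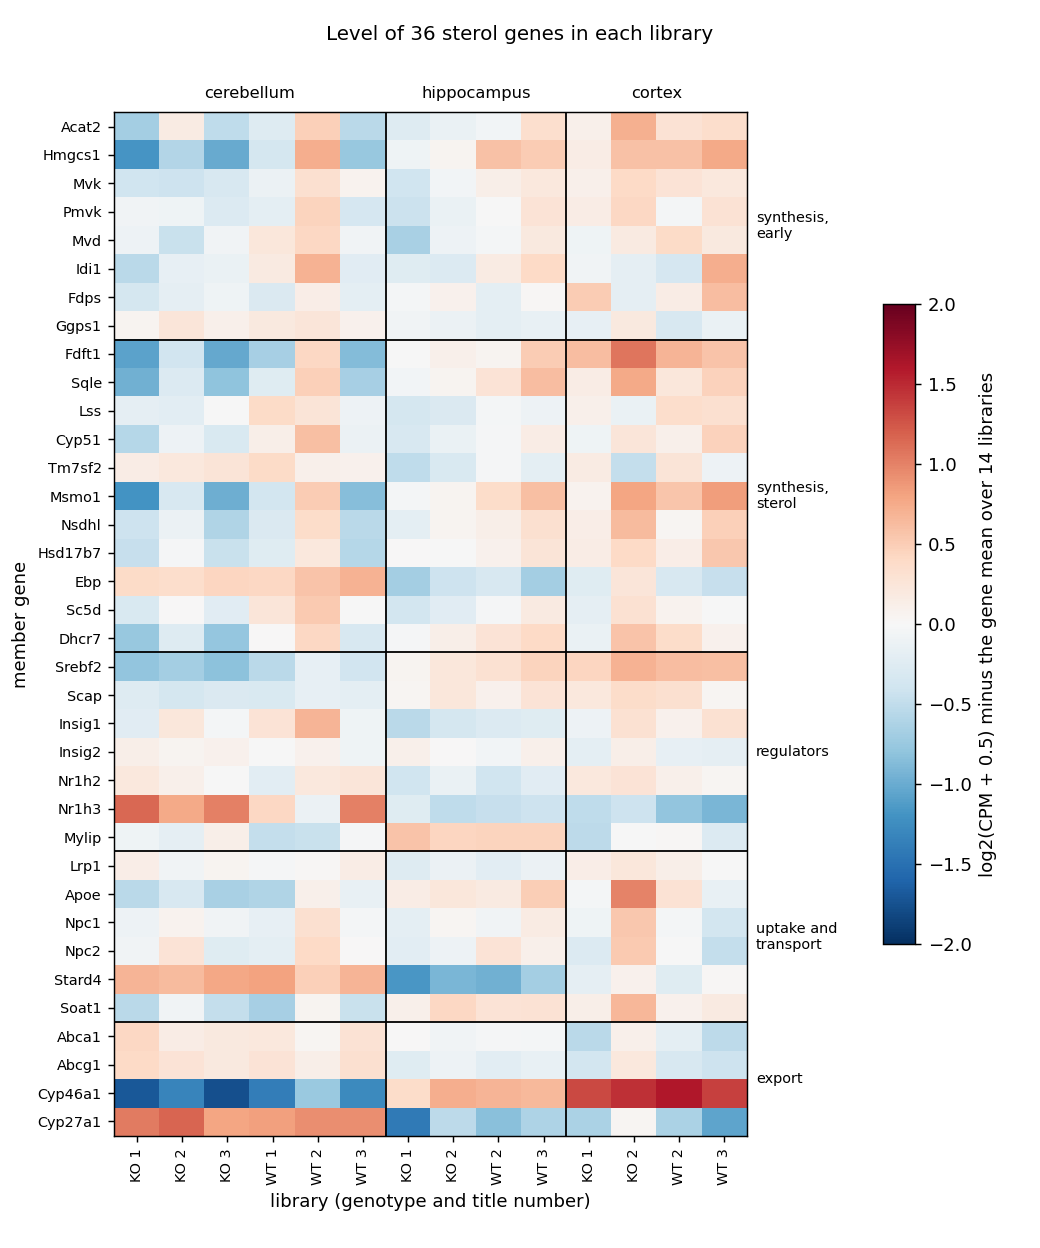
Level of each of the 36 members (rows, grouped by role) in each of the 14 libraries (columns, by region, genotype and title number), as log2(CPM + 0.5) minus the gene's mean over all libraries. In cerebellum the synthesis rows are bluer in KO libraries 1 and 3 and redder in WT library 2, and Cyp46a1, Stard4, Cyp27a1 and Nr1h3 separate cerebellum from the other regions.

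The comparison of KO with WT in cerebellum asked whether loss of CARIP changes the pathway there. Of the 19 synthesis genes, 18 had a negative log2 fold change, with a median of -0.43 against -0.01 for all 24680 genes tested, and Hmgcs1 had the largest at -0.93 ± 0.32 (SE). None of them passed in the fit to all 14 libraries (edgeR quasi-likelihood, Benjamini-Hochberg adjusted p under 0.05). In the fit that pairs cerebellar libraries by their title number, Dhcr7, Cyp51 and Srebf2 passed as lower. They are, in this order, the enzyme of the last reduction to cholesterol, the lanosterol demethylase and the master regulator of synthesis. No label says what the numbers mean, and the pairing was chosen from the same counts. Without the libraries numbered 2, 0 of these 3 passed when paired. Regulators other than Srebf2, uptake and export did not pass in the unpaired fit or in the paired fit of all 3 numbers. The median depended on WT library 2, which had the highest level of 16 synthesis genes among the cerebellar libraries, and was -0.19 without it.

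In the unpaired fit 0 of 24680 genes (0%) and 0 of the 36 members passed, by edgeR. Unadjusted p was under 0.05 for 785 genes and 8 members. DESeq2 and limma voom also called 0 members, with 10 members each under the same unadjusted p. The title numbers 1 to 3 have no stated meaning, but libraries of the same number deviated together from their group means, with correlations of 0.29, 0.78 and 0.38 across 15943 genes. With the number as a block, 104 genes passed, 18 higher and 86 lower (0.348% of the genes tested were called lower), and 3 members did, all lower. Numbers 1 and 3 paired as well when crossed, with 0.49 for KO 3 with WT 1 and 0.35 for KO 1 with WT 3. The counts thus set apart only number 2 as a pair, and the block was chosen from the same counts that it tests. With numbers 1 and 3 crossed, 0.746% of genes and 8 members were called lower: Dhcr7, Cyp51 and Srebf2 again, and Fdft1, Msmo1, Sc5d, Sqle and Cyp46a1. Without both libraries of number 2, 0 members passed in the paired fit, and 43 of all genes were called lower. Without number 1, 4 members (Apoe, Cyp46a1, Dhcr7 and Srebf2) and 202 of all genes were called lower. Without number 3, 10 members, 9 of them synthesis genes, and 172 of all genes were.

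Among the early enzymes, which make the isoprenoid units, all 8 had negative values in cerebellum, with a median of -0.34. Hmgcs1 (ENSMUSG00000093930.1, chromosome 13, 119690379 to 119708260), whose promoter holds the sterol response element core, had 56.8, 86.1 and 64.2 CPM in KO libraries 1, 2 and 3, against 102, 216 and 76.8 CPM in WT libraries 1, 2 and 3. The WT libraries spread more widely than the difference of the means, and KO library 2 lay above WT library 3. Its log2 fold change was -0.93 ± 0.32 (SE, unadjusted p = 0.015, adjusted p = 1) in the unpaired fit and -0.82 ± 0.24 (adjusted p = 0.46) in the paired one. Mvk (ENSMUSG00000041939.14, chromosome 5, 114444269 to 114460591), the kinase that phosphorylates mevalonate, had 9.24, 9.13 and 9.74 CPM in KO libraries, against 11.3, 15.5 and 12.9 CPM in WT libraries. The genotypes did not overlap for Mvk, and how many of all genes did not was not counted. The log2 fold change of Mvk was -0.50 ± 0.16 (SE, edgeR adjusted p = 1, and 0.24 paired). Idi1, which interconverts the isoprenoid diphosphates, and Mvd, which makes the first of them, had -0.56 ± 0.28 and -0.43 ± 0.21. Acat2, Pmvk, Fdps and Ggps1 lay between -0.26 and -0.04.

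Of the 11 enzymes from squalene to cholesterol, 10 had negative values with a median of -0.44, and Tm7sf2, a sterol reductase, had 0.01 ± 0.19. Dhcr7 (ENSMUSG00000058454.15, chromosome 7, 143823145 to 143848410) had 15.3, 21.9 and 15.2 CPM in KO libraries 1, 2 and 3, against 26.4, 35.04 and 20.96 CPM in WT libraries. Each KO library was below the WT library of its number, although KO 2 and WT 3 overlapped. Dhcr7 fell by 0.65 ± 0.11 on the log2 scale in the paired fit (edgeR, adjusted p = 0.0195). The unpaired fit gave -0.65 ± 0.22 (adjusted p = 1). Cyp51 (ENSMUSG00000001467.5, chromosome 5, 4081145 to 4104746) had 32.4, 45.4 and 39.4 CPM in KO libraries, against 52.7, 74.1 and 44.8 CPM in WT libraries, again lower in KO within each number. Cyp51 fell by 0.54 ± 0.11 when paired (adjusted p = 0.044). Sqle, which opens the oxygen-dependent steps by epoxidising squalene, and Msmo1, which removes methyl groups, had paired values of -0.56 ± 0.12 (adjusted p = 0.073) and -0.62 ± 0.14 (adjusted p = 0.095).

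**Figure D2:**
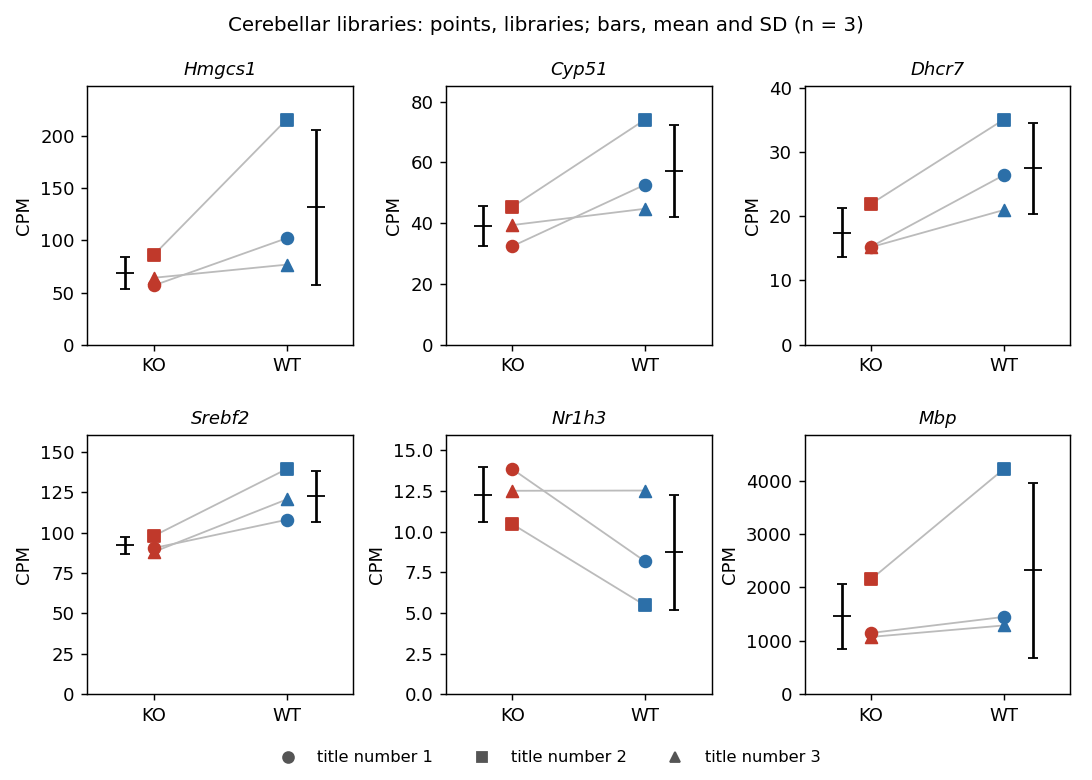
CPM of 5 members and the myelin gene Mbp in the cerebellar libraries, KO left of WT, with grey lines joining libraries of one title number and bars for mean and SD (n = 3). For Hmgcs1, Cyp51, Dhcr7, Srebf2 and Mbp each KO library lies below its WT partner, and WT library 2 is the highest of all 6.

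Among the regulators, Srebf2 (ENSMUSG00000022463.7, chromosome 15, 82147181 to 82205379) had 90.5, 98.1 and 88.1 CPM in KO cerebellum, against 108, 139.5 and 121 CPM in WT cerebellum. The 2 genotypes did not overlap, and how many of all genes did not was not counted. Srebf2 fell by 0.41 ± 0.08 on the log2 scale in the paired fit (edgeR, adjusted p = 0.036), and the unpaired fit gave -0.41 ± 0.12 with the smallest unadjusted p of the members (0.0035, adjusted p = 1). Nr1h3, the liver X receptor alpha that turns on efflux genes, ran the other way, with 13.8, 10.5 and 12.5 CPM in KO libraries against 8.16, 5.46 and 12.5 CPM in WT libraries. Its log2 fold change was 0.49 ± 0.26 (adjusted p = 1, and 0.30 paired), and libraries 3 of both genotypes were level. Insig1 had -0.33 ± 0.19, and Mylip, a ubiquitin ligase that marks lipoprotein receptors for degradation, had 0.26 ± 0.17. Scap, Insig2 and Nr1h2, the liver X receptor beta, lay between -0.08 and 0.09.

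Uptake and export genes had small values in cerebellum, with medians of -0.06 over 6 and 0.06 over 4 members. Apoe (ENSMUSG00000002985.16, chromosome 7, 19696109 to 19699188) had 407, 472 and 377 CPM in KO libraries, against 386, 632 and 534 CPM in WT libraries (log2 fold change -0.31 ± 0.25, edgeR adjusted p = 1). Npc1, which releases cholesterol from lysosomes, had 89.7, 101 and 92.1 CPM in KO libraries, against 86.5, 121 and 93.8 CPM in WT libraries (-0.09 ± 0.17). For both genes the genotypes overlapped. Abca1 (ENSMUSG00000015243.4, chromosome 4, 53030787 to 53159895), which loads cholesterol onto apolipoproteins, had 131, 109 and 112 CPM in KO libraries, against 114, 102 and 120.3 CPM in WT libraries (0.07 ± 0.15). Cyp46a1 (ENSMUSG00000021259.4, chromosome 12, 108334381 to 108362234), the neuronal cholesterol hydroxylase, had 14.7, 19.1 and 13.96 CPM in KO libraries, against 18.4, 28.9 and 19.9 CPM in WT libraries. Its log2 fold change of -0.49 ± 0.18 was the only negative one among the export genes (adjusted p = 1, and 0.11 paired).

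Markers of oligodendrocytes moved with the synthesis genes in cerebellum. All 12 myelin and oligodendrocyte genes had negative values (median -0.79), with summed levels of 2407 to 4562 CPM in KO libraries and 2668 to 9462 CPM in WT libraries, none of them at 0. Opalin, a myelin membrane protein, had 0.885, 3.39 and 1.496 CPM in KO libraries, against 7.86, 20.7 and 3.22 CPM in WT libraries, and fell by 2.33 ± 0.33 on the log2 scale in the paired fit (edgeR, adjusted p = 0.033). Mbp, a main structural protein of myelin, had 1146, 2150 and 1073 CPM in KO libraries, against 1447, 4215 and 1287 CPM in WT libraries. All 8 oligodendrocyte precursor markers were negative too (median -0.40), with summed levels of 550 to 645 CPM in KO and 698 to 792 CPM in WT libraries. The 6 granule cell markers and the 8 neuronal markers were all negative by less (medians -0.18 and -0.09), with sums of 2204 to 2722 CPM in KO and 2171 to 3480 CPM in WT libraries for granule cells, and of 4041 to 4831 CPM in KO and 4279 to 5292 CPM in WT libraries for neurons. The 8 meningeal fibroblast markers were all negative (median -0.81, summed levels of 117 to 138 CPM in KO and 168 to 194 CPM in WT libraries), and of 12 astrocyte markers 9 were negative (median -0.15, 4312 to 5108 CPM in KO and 4684 to 5718 CPM in WT libraries). In the paired fit (edgeR, adjusted p under 0.05) 2 of the 12 myelin, 3 of the 12 astrocyte and 2 of the 8 meningeal markers passed. Of the precursor, granule cell and neuronal markers 0 did. No marker of these lists was at 0 in all libraries, and the part of the cell types other than oligodendrocytes in the result was not tested. With a myelin score, the mean log2 CPM of the 12 myelin genes in each library, as a covariate beside the 6 groups, the cerebellar median of the synthesis genes was -0.21 and 0 members passed. With the score and the pairing together it was -0.02, with 8 of 19 positive, and 0 members passed. That fit leaves few degrees of freedom, and the score differs between the genotypes in all 3 pairs.

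In hippocampus the synthesis genes also had lower values in KO, without any passing. Of 19, 17 were negative with a median of -0.31 (all genes 0.00), and all 11 enzymes from squalene to cholesterol were among them. By edgeR 0 genes (0%) and 0 members passed, 472 genes and 0 members had an unadjusted p under 0.05, and DESeq2 and voom also called 0 members. Hmgcs1 had 122 and 136 CPM in KO libraries 1 and 2, against 195 and 186 CPM in WT libraries 2 and 3 (log2 fold change -0.56 ± 0.39, SE). Mvk had 9.19 and 11.8 CPM in KO against 13.4 and 14.4 CPM in WT hippocampus (-0.40 ± 0.19), and Cyp51 had 39.0 and 44.1 CPM in KO against 48.1 and 53.9 CPM in WT hippocampus (-0.29 ± 0.23). For these 3 genes the 2 KO libraries lay below the 2 WT libraries. Dhcr7 had 25.8 and 28.4 CPM in KO and 31.9 and 34.7 CPM in WT hippocampus (-0.30 ± 0.27), and Srebf2 had 164 and 184 CPM in KO and 193 and 213 CPM in WT hippocampus (-0.23 ± 0.14), with no overlap for either.

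Among the 17 regulators, uptake and export genes in hippocampus, Insig1 and Npc2 were also without overlap. Insig1 had 28.7 and 32.7 CPM in KO libraries, against 34.8 and 35.6 CPM in WT libraries (log2 fold change -0.20 ± 0.23), and Npc2 had 26.1 and 28.001 CPM in KO, against 36.5 and 32.5 CPM in WT (-0.35 ± 0.28). The other 14 overlapped between genotypes. With 2 libraries per genotype, a lack of overlap is frequent even without an effect. How many of all genes did not overlap was not counted, so these cases are descriptions only. Nr1h3 had 4.99 and 4.06 CPM in KO libraries, against 4.19 and 4.37 CPM in WT libraries. Apoe had 652 and 690.2 CPM in KO, against 666 and 826 CPM in WT, and Npc1 had 84.5 and 99.2 CPM in KO, against 91.7 and 109 CPM in WT. Abca1 had 98.9 and 93.3 CPM in KO, against 96.6 and 95.4 CPM in WT, and Cyp46a1 had 62.5 and 81.1 CPM in KO, against 78.2 and 76.2 CPM in WT. These 5 are among the overlapping genes. The myelin genes were all negative here as well (12 of 12, median -0.51), with summed levels of 3220 to 4327 CPM in KO and 4793 to 5733 CPM in WT libraries. With the myelin score as covariate the synthesis median was -0.17. Other markers had negative values in KO hippocampus too: choroid plexus for 7 of 7 genes (median -1.77, 83.1 to 98.6 CPM in KO and 135 to 1139 CPM in WT libraries) and striatum for 8 of 8 (-0.63, 55.8 to 63.6 CPM in KO and 79.2 to 90.04 CPM in WT libraries). Precursor markers were negative for 7 of 8 (-0.15, 637 to 653 CPM in KO and 700.4 to 732 CPM in WT libraries) and meningeal markers for 5 of 8 (-0.63, 49.7 to 63.7 CPM in KO and 54.6 to 119.9 CPM in WT libraries). None of these genes was at 0 in all libraries, and their part in the result was not tested.

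In cortex the synthesis genes showed no common direction: 10 of 19 were positive, with a median of 0.02. All 6 uptake and transport genes were positive, with a median of 0.34 against 0.02 for all genes, and Npc1 had 0.46 ± 0.21 (SE). By edgeR 0 genes (0%) and 0 members passed. Unadjusted p was under 0.05 for 1825 genes and 2 members, Npc1 (adjusted p = 0.68) and the lanosterol synthase Lss (-0.35 ± 0.16, adjusted p = 0.68), and 0 members passed by DESeq2 and voom. KO cortex library 2, the one with striatal and choroid plexus transcripts, was the higher KO library for all of the genes in the next sentences. Apoe had 572 and 1173 CPM in KO libraries 1 and 2, against 720 and 531 CPM in WT libraries 2 and 3. Npc1 had 91.3 and 141 CPM in KO, against 93.8 and 75.2 CPM in WT, and Abca1 had 67.3 and 106 CPM in KO, against 86.03 and 68.2 CPM in WT. Cyp46a1 had 122 and 134 CPM in KO, against 148 and 127 CPM in WT cortex.

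Of the synthesis genes named above, Hmgcs1 had 145 and 196 CPM in KO cortex, against 194 and 221 CPM in WT, and Mvk 13.2 and 16.4 CPM in KO, against 14.9 and 14.2 CPM in WT. Cyp51 had 45.7 and 57.5 CPM in KO, against 52.0 and 67.0 CPM in WT, and Dhcr7 had 23.9 and 39.3 CPM in KO, against 34.0 and 27.8 CPM in WT. Srebf2 had 211 and 254 CPM in KO against 241 and 239 CPM in WT, and Nr1h3 had 4.07 and 4.36 CPM in KO against 3.26 and 2.93 CPM in WT. Only Nr1h3 of these did not overlap between genotypes, and how many of all genes did not was not counted. Without KO library 2 the synthesis median in cortex was -0.21, with 14 of 19 negative, and Apoe had -0.14, against 0.48 ± 0.30 with all libraries. Without KO library 1, Apoe (0.91 ± 0.26, adjusted p = 0.042), Npc1 (0.74 ± 0.20, adjusted p = 0.035) and Abcg1, an exporter to lipoproteins (0.59 ± 0.14, adjusted p = 0.021), passed by edgeR as higher, as did 5.41% of all genes, so these calls rest on KO library 2. Astrocyte markers were positive in cortex for 12 of 12 genes (median 0.33), with sums of 7104 to 8669 CPM in KO and 6925 to 7431 CPM in WT libraries. Myelin genes were positive for 11 of 12 (median 0.29), with sums of 2351 to 6073 CPM in KO and 1912 to 3906 CPM in WT libraries. No gene of either list was at 0 in all libraries, and their part in these values was not tested. Scaling by library totals alone gave a synthesis median of -0.07 in cortex, against -0.06 for all genes.

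**Figure D3:**
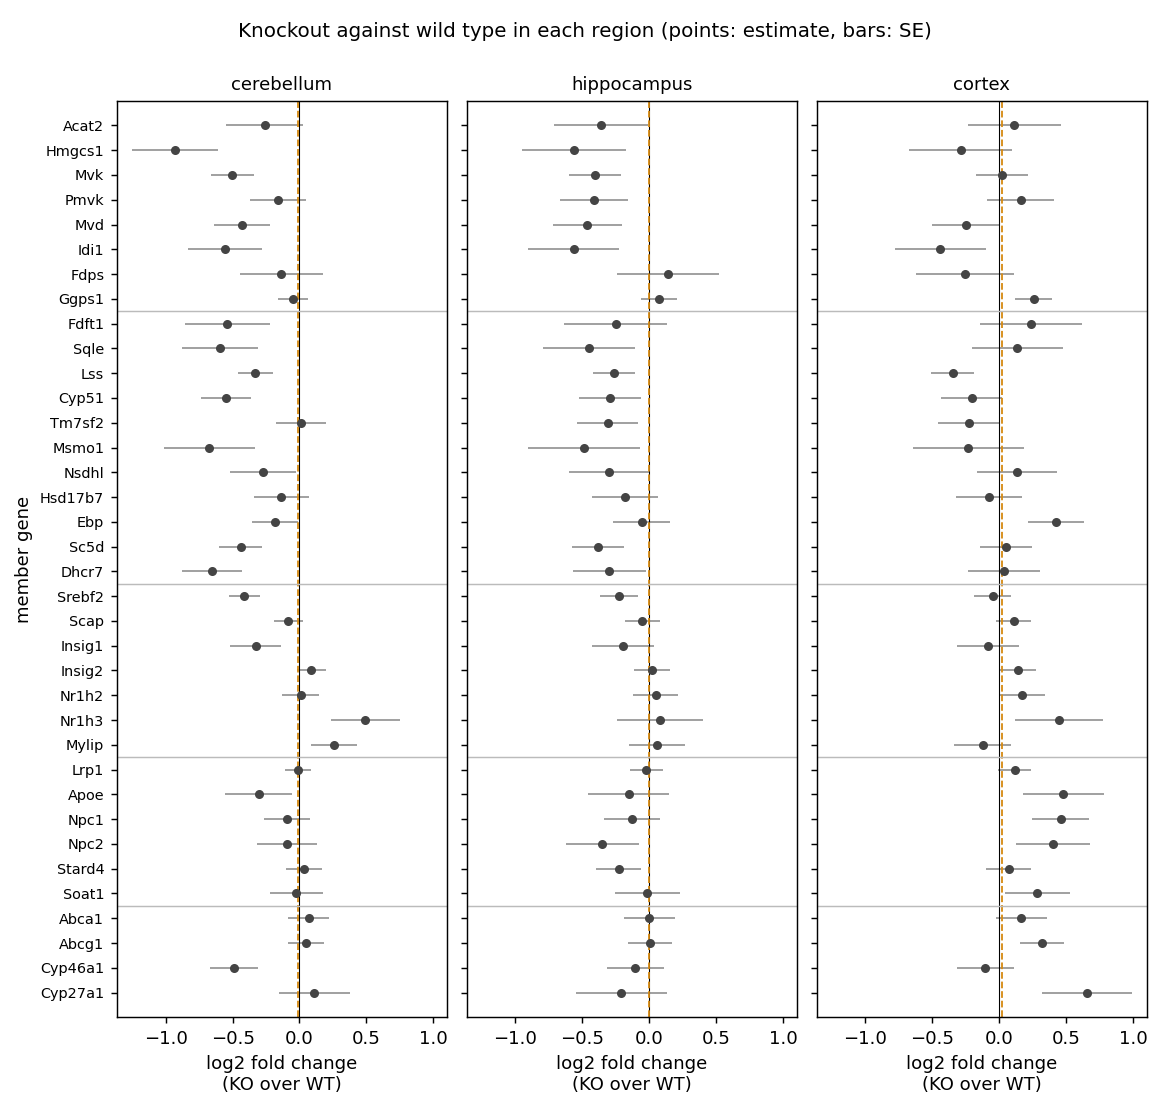
Log2 fold change (KO over WT, points) with its SE (bars) for the 36 members in cerebellum, hippocampus and cortex, from the edgeR fit to 14 libraries without pairing; the dashed line is the median of all genes tested. Synthesis points lie left of 0 for 18 of 19 genes in cerebellum, 17 in hippocampus and 9 in cortex, and no member passed.

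The mean KO effect over the 3 regions was tested by limma voom with a random block of libraries that share genotype and title number. Of the 19 synthesis genes 17 were negative, with a median of -0.26, and 0 genes (0%) passed. The median was -0.28 without KO cortex library 2. Unadjusted p was under 0.05 for 1086 genes and 8 members, of which 7 were synthesis genes. The lowest belonged to Lss (-0.32 ± 0.10, adjusted p = 0.90), which closes the sterol ring and had -0.33 in cerebellum, -0.26 in hippocampus and -0.35 in cortex. Hmgcs1 had the largest mean effect of the members at -0.55 ± 0.21. DESeq2 called 81 genes for this mean and 0 members, and edgeR without the block called 1 gene and 0 members. The differences of the KO effect between regions gave 0 genes (0%) and 0 members in each of 3 contrasts by edgeR. Ebp, a sterol isomerase, was the only member with an unadjusted p under 0.05, in cerebellum against cortex (difference -0.61 ± 0.27, adjusted p = 0.79). The absence of a call in cortex is thus not shown to differ from the cerebellar result. Without KO cortex library 1, 1 member passed in these contrasts, Apoe.

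More members passed between regions than between genotypes, in contrasts with more libraries on each side. Between cerebellum and cortex, over both genotypes, 7 members were higher and 13 lower in cerebellum, against 23% of all genes called higher and 25.3% lower (edgeR, adjusted p under 0.05). The neuronal Cyp46a1 differed most, with 13.96 to 28.9 CPM in cerebellum and 122 to 148 CPM in cortex (log2 difference -2.81 ± 0.14, adjusted p = 1.49e-08). Against hippocampus, 10 members were higher and 11 lower in cerebellum, where 22.6% and 24.7% of all genes were. Between hippocampus and cortex 1 member was higher and 5 were lower in hippocampus, against 5.49% and 6.48% of all genes. As shares of 36, the lower counts and the 10 higher against hippocampus lay above the shares of all genes, and the 7 and the 1 lay below them. Scaling by library totals shifted the median log2 difference of all genes to 0.19 against cortex (0.01 with TMM scaling) and to 0.18 against hippocampus (0.02 with TMM). It called 7904 genes higher and 4887 lower in cerebellum than in cortex, against 5685 and 6256 with TMM, and 7600 and 4801 against hippocampus, where TMM gave 5583 and 6093. The member counts then were 8 higher and 9 lower against cortex and 13 higher and 5 lower against hippocampus.

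Several synthesis genes were lower in cerebellum than in cortex. Against cortex 8 of 19 passed as lower and 2 as higher, where 25.3% and 23% of all genes did. The median log2 difference was -0.40 (all genes 0.01), or -0.22 with library totals, where 4 were lower and 2 higher. Without KO cortex library 2 the median was -0.30 and 5 were lower, with the calls of Dhcr7, Mvk, Nsdhl and Sqle lost. Against hippocampus 5 were lower and 3 higher, with a median of -0.11, where 24.7% of all genes were lower and 22.6% higher. The share of synthesis genes called lower was thus near that of all genes, and the share called higher was below it. These 5 lower calls were 0 with library totals, where the median was 0.05 and 5 genes were higher, and 1 with no filter on low counts. They were 0 as well without KO cerebellum library 1 or 3, WT cerebellum library 1, KO hippocampus library 1 or 2, or WT hippocampus library 3, and 1 without WT cerebellum library 3 or WT hippocampus library 2. Fdft1, the squalene synthase that commits isoprenoids to sterols, had 28.9 ± 13.4 CPM in cerebellum (SD, n = 6), 46.7 ± 8.09 CPM in hippocampus and 69.6 ± 11.9 CPM in cortex (n = 4 each), and its log2 difference from cortex was -1.28 ± 0.25 (SE, edgeR adjusted p = 0.0013). Msmo1 had -1.05 ± 0.26 (adjusted p = 0.0071) and Hmgcs1 -0.98 ± 0.25 (adjusted p = 0.0072). Against hippocampus Fdft1 had -0.71 ± 0.25, Msmo1 -0.71 ± 0.27 and Hmgcs1 -0.72 ± 0.25, among the 5 calls that depend on the scaling, the filter and single libraries. Ebp, Ggps1 and Tm7sf2 ran the other way. Ebp had 16.0 ± 1.57 CPM in cerebellum against 7.75 ± 1.06 CPM in hippocampus and 9.94 ± 2.35 CPM in cortex, higher by 1.04 ± 0.14 and 0.69 ± 0.14 on the log2 scale. Ggps1, which makes the lipid anchor of small GTPases, was higher by 0.25 ± 0.09 against cortex and by 0.29 ± 0.09 against hippocampus, and Tm7sf2 by 0.48 ± 0.15 against hippocampus. Between hippocampus and cortex 0 synthesis genes passed by edgeR, with 2 at an unadjusted p under 0.05, and all 19 values were negative (median -0.27). DESeq2 and voom with the random block called 1, Lss, as did edgeR without KO cortex library 2 or WT cerebellum library 1 or 3; Ebp passed without KO cortex library 1 and Fdft1 without WT cerebellum library 2. Without KO cortex library 2, 17 of 19 values were negative (median -0.18). The genotypes weighed in unequally: from KO libraries alone 7 synthesis genes passed as lower in cerebellum than in cortex (median -0.52, against 20.4% of all genes), and from WT libraries alone 0 did (median -0.14, against 16.5% of all genes), while the difference of the KO effect between these regions did not pass for any of them.

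The regulators split by region. Srebf2 had 107 ± 19.7 CPM in cerebellum (SD, n = 6), 188 ± 20.6 CPM in hippocampus and 236 ± 18.2 CPM in cortex (n = 4 each), lower in cerebellum by 1.149 ± 0.09 and 0.82 ± 0.09 on the log2 scale (edgeR, adjusted p = 5.44e-07 and 9.14e-06). Its escort Scap was lower too, by 0.50 ± 0.08 and 0.43 ± 0.08. Nr1h3 was higher in cerebellum, with 10.5 ± 3.17 CPM against 4.40 ± 0.41 CPM in hippocampus and 3.66 ± 0.67 CPM in cortex, by 1.23 ± 0.21 and 1.51 ± 0.22. Mylip was highest in hippocampus, with 28.1 ± 1.30 CPM against 17.9 ± 2.94 CPM in cerebellum and 17.7 ± 3.12 CPM in cortex. Nr1h2 and Srebf2 were lower in hippocampus than in cortex, by 0.45 ± 0.12 and 0.33 ± 0.10.

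Uptake, transport and export genes held the widest regional differences. Stard4, a cytosolic sterol carrier, had 46.5 ± 3.69 CPM in cerebellum (SD, n = 6), 14.998 ± 2.15 CPM in hippocampus and 27.4 ± 3.05 CPM in cortex (n = 4 each), and the 3 regions did not overlap. It was higher in cerebellum by 1.64 ± 0.11 and 0.76 ± 0.11 on the log2 scale, and lower in hippocampus than in cortex by 0.88 ± 0.12 (edgeR, adjusted p = 0.00039). Apoe and Soat1, which esterifies cholesterol for storage, were lower in cerebellum than in cortex, by 0.67 ± 0.19 and 0.62 ± 0.16. Apoe did not pass without KO cortex library 2 (-0.36), without WT cortex library 2 (-0.55) or from WT libraries alone (-0.27). Lrp1 was higher in cerebellum than in hippocampus by 0.22 ± 0.08 and lower in hippocampus than in cortex by 0.29 ± 0.09. Cyp46a1 had 19.2 ± 5.34 CPM in cerebellum, 74.5 ± 8.24 CPM in hippocampus and 133 ± 11.5 CPM in cortex, again without overlap of regions. Cyp27a1, the sterol hydroxylase of mitochondria, ran opposite, with 11.9 ± 1.21 CPM in cerebellum against 3.17 ± 0.91 CPM in hippocampus and 3.999 ± 1.497 CPM in cortex, higher by 1.91 ± 0.23 and 1.60 ± 0.22. Abca1 was higher in cerebellum than in cortex by 0.49 ± 0.12 and Abcg1 by 0.47 ± 0.11. How many of all genes separated the 3 regions without overlap, as Stard4 and Cyp46a1 did, was not counted.

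**Figure D4:**
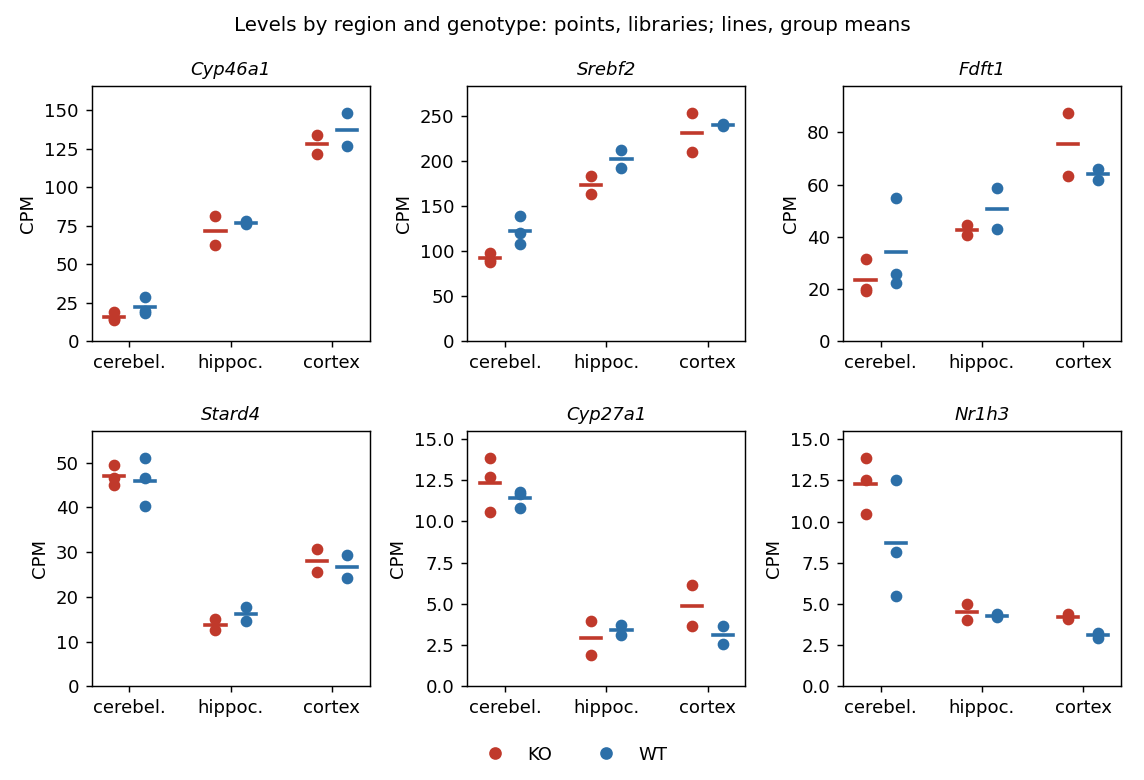
CPM of 6 members in each library (points) by region, with KO left of WT and a line at each group mean (n = 3 in cerebellum, 2 elsewhere). Cyp46a1, Srebf2 and Fdft1 are lowest in cerebellum, and Stard4, Cyp27a1 and Nr1h3 are highest there.

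Of these regional calls, 10 members were called between cerebellum and hippocampus from KO libraries alone (7913 of all genes) and 8 from WT libraries alone (7604 of all genes). The 8 in both sets were Cyp27a1, Cyp46a1, Ebp, Mylip, Nr1h3, Scap, Srebf2 and Stard4. Against cortex, Cyp46a1, Srebf2, Scap, Stard4, Cyp27a1 and Nr1h3 were called in each genotype alone, where 8994 of all genes passed in KO and 7567 in WT. How many of all genes were called in both genotypes, or on leaving out each library as below, was not counted. These member counts are therefore descriptions only. On leaving out each of the 14 libraries in turn, 13 of the 20 members called against cortex passed every time: Cyp46a1, Srebf2, Scap, Fdft1, Msmo1, Hmgcs1, Soat1, Stard4, Cyp27a1, Nr1h3, Ebp, Abca1 and Abcg1. Against hippocampus 10 of 21 did (Cyp46a1, Srebf2, Scap, Mylip, Soat1, Stard4, Cyp27a1, Nr1h3, Ebp and Abcg1), and between hippocampus and cortex 2 of 6 (Cyp46a1 and Stard4). The count against hippocampus was 11 without KO hippocampus library 1 and 13 without KO library 2, against 21 with all libraries. The count between hippocampus and cortex, 6 with all libraries, was 2 without KO hippocampus library 1 or WT cortex library 3, and 3 without WT cortex library 2, WT hippocampus library 2 or WT hippocampus library 3.

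The level of the synthesis genes was then compared with the myelin level of each library. The myelin score was 5.78, 6.71 and 5.83 in KO cerebellar libraries 1, 2 and 3, against 6.51, 7.86 and 5.99 in WT libraries. In hippocampus it was 6.36 and 6.82 in KO, against 7.29 and 7.00 in WT, and in cortex 5.93 and 7.07 in KO, against 6.67 and 5.82 in WT. The mean log2 CPM of the 19 synthesis genes was 3.97, 4.29 and 4.07 in KO cerebellum, against 4.39, 4.86 and 4.15 in WT cerebellum, so within each genotype the library with the higher myelin score had the higher synthesis level. In hippocampus it was 4.18 and 4.35 in KO, against 4.49 and 4.64 in WT, and in cortex 4.52 and 4.78 in KO, against 4.62 and 4.77 in WT. In WT hippocampus and WT cortex the order was reversed: the library with the lower myelin score had the higher synthesis level.

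Within groups, 12 of the 36 members rose with the myelin score and 0 fell, against 7.72% and 4.55% of all genes (edgeR, the score beside the 6 groups, adjusted p under 0.05). Among them were 7 synthesis genes, and the median slope of all 19 was 0.27 log2 units per log2 unit of score, against -0.02 for all genes. Dhcr7 had the smallest p, with a slope of 0.44 ± 0.07 (SE, adjusted p = 0.0034). Fdft1 had 0.56 ± 0.10 (adjusted p = 0.0058), Hmgcs1 0.57 ± 0.10 (adjusted p = 0.0060), Msmo1 0.59 ± 0.12 (adjusted p = 0.011), Acat2 0.51 ± 0.11 (adjusted p = 0.011) and Sqle 0.48 ± 0.11 (adjusted p = 0.015). Outside synthesis, Npc2, the soluble partner of Npc1 in lysosomes, had 0.40 ± 0.08 (adjusted p = 0.011) and Cyp46a1 0.31 ± 0.07 (adjusted p = 0.013), and Sc5d, Insig1, Npc1 and Soat1 also passed. Not every step followed: the slopes of Lss (0.02 ± 0.08), Fdps (-0.06 ± 0.20) and Tm7sf2 (-0.06 ± 0.12) had the largest p among the synthesis genes. Srebf2 had 0.15 ± 0.06 (adjusted p = 0.11), and Nr1h3 had the most negative slope of the members at -0.37 ± 0.13 (adjusted p = 0.080).

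These slopes leaned on the cerebellar libraries numbered 2. Without WT library 2, 2 members (Dhcr7 and Npc2) and 706 of all genes passed, and without KO library 2, 6 members and 1074 of all genes did. Without both, 0 of 36 members and 618 of all genes passed by edgeR. An unadjusted p under 0.05 was then held by 8 members and by 5115 of the 24314 genes tested, a similar share. The synthesis median without both was 0.18. The slopes of Dhcr7 and Npc2 were then 0.49 ± 0.12 (adjusted p = 0.055) and 0.51 ± 0.15 (adjusted p = 0.083), and that of Hmgcs1 was 0.25 ± 0.12. In the 6 cerebellar libraries alone 18 members passed, 17 with a positive slope (10.4% of all genes) and Nr1h3 with a negative one (5.25% of all genes, -0.51 ± 0.12, adjusted p = 0.012). Hmgcs1 had 0.75 ± 0.06 there. Apart from myelin, the libraries of number 2 differed from the others in total reads (28.5 M in KO and 28.3 M in WT, against 20.1 to 24.2 M in the other cerebellar libraries). They also had lower Purkinje cell sums (4254 CPM in KO and 3408 CPM in WT, against 5170 to 5762 CPM). Their granule cell sums were lower too (2204 CPM in KO and 2171 CPM in WT, against 2721 to 3480 CPM). Their neuronal and astrocyte sums were the highest of each genotype. The part of depth and of tissue content in the slopes was not tested.

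**Figure D5:**
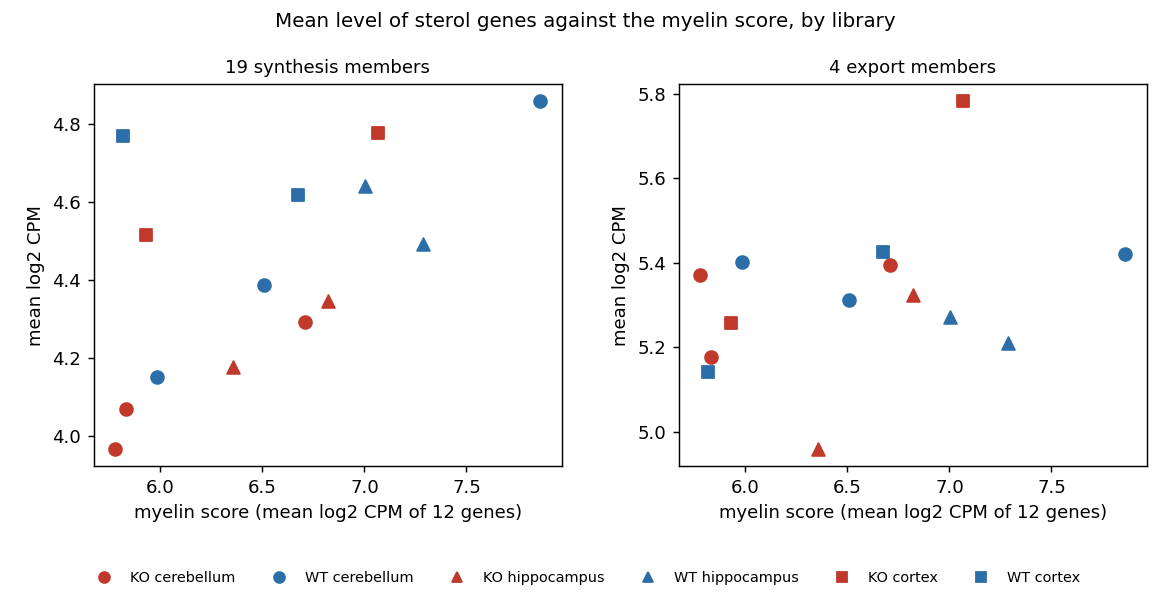
Mean log2 CPM of the 19 synthesis members (left) and of the 4 export members (right) against the myelin score (mean log2 CPM of 12 genes), 1 point per library. Within each genotype of cerebellum, and between the KO libraries of the other regions, the synthesis mean increases with the score, up to 4.86 at a score of 7.86 in WT cerebellum 2, whereas WT cortex 3 pairs 4.77 with a score of 5.82.

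A further 46 genes of the pathway (synthesis, sensing, transport and export) were read from the same fits, and 44 could be tested. None passed for KO against WT in any region or in the paired cerebellar fit, with 26 of 44 negative in cerebellum, 27 in hippocampus and 14 in cortex. Between cerebellum and cortex 10 were higher and 11 lower, between cerebellum and hippocampus 18 higher and 8 lower, and between hippocampus and cortex 3 higher and 4 lower, of 44 in each. Against cortex these shares are near the 23% and 25.3% of all genes. Of all genes, 22.6% were higher and 24.7% lower in cerebellum than in hippocampus, and 5.49% higher and 6.48% lower in hippocampus than in cortex. Stard5, a sterol-binding relative of Stard4, was higher in cerebellum than in cortex by 3.34 ± 0.19 on the log2 scale (edgeR, adjusted p = 3.42e-08). Scarb1, a lipoprotein receptor, had a log2 difference of -1.60 ± 0.19 between cerebellum and cortex, and Cyp7b1, an oxysterol hydroxylase, one of -2.17 ± 0.15 between cerebellum and hippocampus. With the myelin score 5 rose and 1 fell, against 7.72% and 4.55% of all genes. Among them were Scarb2 (slope 0.32 ± 0.06, adjusted p = 0.0080) and Lipa, the lysosomal lipase that frees cholesterol from its esters (0.43 ± 0.11, adjusted p = 0.023), which rose, and the transporter Abca7, which fell by 0.33 ± 0.08 per log2 unit of score (adjusted p = 0.025).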

How the data were processed

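Total RNA of 14 libraries from cerebellum, hippocampus and cerebral cortex of CARIP-/- and wild-type mice was sequenced in bulk. The authors deposited 1 table of raw read counts per gene; per the submitters' processing notes, Trim Galore 0.6.4, cutadapt 2.10, STAR 2.7.3a, featureCounts 2.0.1 and the build GRCm38.p6 (mm10) were used. Strandedness, the treatment of multimapping reads and the annotation release were not given in the sources used here. Columns of other samples numbered 0, and no 2 columns were identical. Symbols, exon lengths and coordinates came from GENCODE (GRCm38), which named 48058 of 48440 identifiers.

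Genes were kept by filterByExpr (24680) and scaled by TMM. All 14 libraries in 6 groups were fitted in R 4.3.3 by edgeR 4.0.16, whose quasi-likelihood test was run in its robust form. The coefficient of variation between replicates was 24.7%, and 8 degrees of freedom remained. The mean KO effect used limma 3.58.1 voom with statmod 1.5.0 (correlation within a block 0.096). P-values were adjusted by Benjamini-Hochberg over all genes tested, with a threshold of 0.05. CPM values were computed here on TMM-scaled totals, and scores used log2 CPM with a prior count of 2. Of the fits, only the unpaired cerebellar KO comparison and the myelin slope were run on simulated data. The paired fit, the mean KO effect and the other contrasts were not. Alternatives were DESeq2 1.42.0, limma voom, other scalings, no filter, the myelin score as covariate, each library left out and the replicate block. Precision is limited by 2 or 3 libraries per group.

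The title numbers of cerebellar libraries were used as pairs in a separate fit because same-numbered libraries deviated together (each correlation above 0.1), although no label says what they mean. Hippocampus and cortex share only the number 2 between genotypes, so they have no paired fit. Members, gene lists, tests and the rule for named genes were chosen with earlier results of these data known. That rule gave values in every library for members called in a KO comparison, with or without the pairing, and for the 2 members per role with the smallest cerebellar p. It also took up to 3 members per role called between regions, and up to 8 members with the smallest and 3 with the largest slope p. A myelin gene that the rule also names is not reported here. Other genes, among them Cyp51's promoter, Scarb1, Idi1, Mvd, Insig1 and Mylip, were named after their values were seen.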

Additional observations from a re-analysis of the deposited data

How the results depend on the processing

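With the replicate block, which pairs cerebellar libraries by title number, 3 members passed for KO against WT, against 0 without it. With numbers 1 and 3 crossed 8 passed, and with the block and without both libraries of number 1, 2 or 3 in turn (chosen after seeing the data) 4, 0 and 10 did. Leaving out number 1, 2 or 3 called 234, 64 and 241 of all genes. With the block and the myelin score together the cerebellar synthesis median was -0.021. The score as covariate gave -0.17 in hippocampus. The cause of these shifts was not tested. Leaving out 1 library in turn gave 0 to 3 members in cortex, 17 to 23 for cerebellum against cortex, 2 to 8 for hippocampus against cortex, 11 to 23 for cerebellum against hippocampus, 2 to 16 for the myelin slope and 0 to 1 for the differences of the KO effect. Synthesis medians ranged over -0.52 to -0.19 in cerebellum, -0.45 to -0.23 in hippocampus and -0.21 to 0.17 in cortex. Without both cerebellar libraries of number 2, 0 members had a slope that passed. From KO libraries alone, which are fewer, 10 members passed between cerebellum and hippocampus and 1 between hippocampus and cortex (7913 and 930 of all genes). From WT libraries alone 8 and 2 passed in these contrasts (7604 and 1368 of all genes), and 10 between cerebellum and cortex (7567 of all genes). DESeq2, limma voom, the other scalings and no filter kept the total of members called in each comparison within 1.5 times, but not the split by direction, which for cerebellum against hippocampus was 13 higher and 5 lower with library totals and 10 and 11 with TMM. No called member changed sign; the synthesis medians that change sign with library totals, in cortex and for cerebellum against hippocampus, are given above. Over all genes the counts moved more: for KO against WT, DESeq2 called 2 genes in cerebellum, 2 in hippocampus and 50 in cortex, where edgeR called 0, and edgeR with the block called 104 in cerebellum. For the slope 3029 genes passed, but 618 without both libraries of number 2. Between hippocampus and cortex 2956 passed, but 1541 without KO hippocampus library 1 and 1721 without WT hippocampus library 2. Of the alternatives for single members, 1164 kept their side of the threshold, 208 lost it and 10 gained it. With 2 or 3 libraries per group and a coefficient of variation of 24.7%, log2 differences as large as 0.93 did not pass in the unpaired cerebellar fit.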
